A study of Mus musculus with 8 samples.

Results

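Gangliosides are sphingolipids whose sugar chain carries sialic acid, and 9 genes encode the enzymes that build their core chain, from the first glucose to the sialic acids added past GD2. The genes were taken from a list of symbols and found by Ensembl identifier among the 17488 genes of the deposited expression table. All 9 were present and all 9 passed the filter on low values, which 16157 genes passed. The members were chosen by pathway with the log2 differences between panobinostat and vehicle tumours already known, so differences between groups in the 9 genes are described, and their calls in the fit of all genes are counted without being read as a test.

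RNA was sequenced from whole intra-abdominal neuroblastomas of 8 mice homozygous for TH-MYCN, with 1 library per animal. In this strain the tyrosine hydroxylase promoter drives human MYCN in sympathoadrenal cells, and all animals of both groups carried it. Treatment began when a tumour measured 200 to 300 mm3 by ultrasound, at about 6 weeks of age. For 4 animals the agent was panobinostat at 5 mg/kg, given in 2 doses 24 h apart, and the other 4 were given vehicle on that schedule. Panobinostat inhibits the zinc-dependent histone deacetylases. Tumours were collected 4 h after the second dose, and each library held tumour cells and stroma together.

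Ganglioside synthesis runs through the Golgi as a short chain of transferases. Glucose and then galactose are put on ceramide to give lactosylceramide, a first sialic acid makes GM3, and a second makes GD3. An N-acetylgalactosamine on GM3 makes GM2, and the same step on GD3 makes GD2. GD2 is abundant on neuroblastoma cells and is the target of antibody treatment in patients. St8sia1, which makes GD3, opens the branch that leads to GD2, and B4galnt1 closes it.

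Promoter windows of 5 of the 9 genes were held in the RefSeq table (GRCm38.p6, the assembly of mm10), each running from 250 bases before to 50 after the annotated start. The windows of St8sia1 and St3gal5 are shown because these genes encode consecutive enzymes and lay on opposite sides of 0 in the comparison of treatments. Both genes are on chromosome 6. The St8sia1 window is chr6:142964403-142964702 on the minus strand, and the St3gal5 window is chr6:72097358-72097657 on the plus strand. Capitals mark matches on either strand to the GC box GGGCGG and the AP-2 motif GCCNNNGGC.
St8sia1: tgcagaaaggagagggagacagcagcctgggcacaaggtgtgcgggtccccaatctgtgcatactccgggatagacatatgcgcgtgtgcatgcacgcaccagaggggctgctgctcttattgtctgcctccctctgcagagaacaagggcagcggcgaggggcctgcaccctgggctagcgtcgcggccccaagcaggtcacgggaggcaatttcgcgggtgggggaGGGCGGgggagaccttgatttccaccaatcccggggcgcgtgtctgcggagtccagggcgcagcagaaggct
St3gal5: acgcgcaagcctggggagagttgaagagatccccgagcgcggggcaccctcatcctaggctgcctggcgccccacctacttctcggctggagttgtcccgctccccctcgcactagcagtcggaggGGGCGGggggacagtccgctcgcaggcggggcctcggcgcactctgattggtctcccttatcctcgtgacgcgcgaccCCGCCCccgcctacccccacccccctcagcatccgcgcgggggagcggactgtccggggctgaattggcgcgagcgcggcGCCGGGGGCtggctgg
The St8sia1 window held 1 GC box and no AP-2 motif, with 64.7% G and C and 19 CpG dinucleotides. The St3gal5 window held 2 GC boxes and 1 AP-2 motif, with 72.7% G and C and 33 CpG dinucleotides. Ugcg had 2 GC boxes and 1 AP-2 motif, B4galt5 had 7 GC boxes, a pair of them overlapping, and 2 AP-2 motifs, and B3galt4 had 1 GC box. None of the 5 windows held the E-box CACGTG or the TATA box TATAAA. Among all 32851 promoter windows of the table, 35.7% held the GC box, 16.6% the AP-2 motif, 7.15% the E-box and 13.6% the TATA box. The median window had 52.7% G and C and 7 CpG dinucleotides. No measurement of binding or chromatin goes with these windows here, and the matches are a description of letters alone.

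Libraries held 22055658 to 23830026 reads over the listed genes with vehicle and 18664066 to 22235545 with panobinostat. Values are given as CPM, the read count scaled to the effective library size that the authors' normalization implies, and 1 CPM corresponded to 19.3 to 22.6 reads. Markers of the sympathoadrenal tumour were present, with reads of all 12 listed genes in every library. Their summed level was 3627 to 4282 CPM with vehicle and 1561 to 2095 CPM with panobinostat, and 7 of the 12 were lower (limma). Among all 16157 tested genes, 32.4% were called lower and 31.2% higher, which is the background for this count and those that follow. All 10 macrophage markers had reads in every library, and their sum was 580.0 to 1158 CPM with vehicle and 2821 to 5015 CPM with panobinostat, with 9 of 10 higher. All 10 fibroblast and mural markers were higher, with sums of 1581 to 4950 CPM with vehicle and 8496 to 15479 CPM with panobinostat. Adrenal cortex markers summed to 9.02 to 11.2 CPM with vehicle and 39.3 to 2735 CPM with panobinostat. Schwann cell markers summed to 96.1 to 153.0 CPM and 101 to 409 CPM, and their highest sum was in panobinostat library 2. Of these 8 markers 6 were higher (median log2 difference 2.35). Most of the vehicle sum was Mbp, at 80.1 to 121 CPM, which was not called (-0.53). Of the 7 adrenal cortex markers, Nr5a1 and Mc2r were at 0 reads in some libraries. Liver, pancreas and kidney markers reached 1169 and 7888 CPM in panobinostat libraries 3 and 4, against 10.2 to 162.0 CPM in the other 6. Tumours are mixtures, so fewer cells of a type and less RNA per cell cannot be told apart in any value below.

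St8sia1, the GD3 synthase gene (ENSMUSG00000030283, GENCODE M21 on mm10, chromosome 6, 142821545 to 142964452), was far lower in the treated tumours than in any vehicle tumour. Its level in the 4 vehicle libraries was 215, 240, 161 and 167 CPM. In the 4 panobinostat libraries it was 28.6, 23.8, 26.0 and 26.2 CPM. The groups did not overlap, and the vehicle tumours fell into a higher pair and a lower pair while the treated tumours were close together. The mean was 196 ± 38.3 CPM with vehicle and 26.2 ± 1.96 CPM with panobinostat (mean ± SD, n = 4 each). The log2 difference was -2.89 (SE 0.14), or 7.39-fold lower, which ranked 34 from the lowest among the 16157 tested genes. The same libraries held less of the sympathoadrenal markers (3627 to 4282 CPM in sum against 1561 to 2095), and the part of this in the St8sia1 difference was not tested. Without panobinostat libraries 3 and 4 the difference was -2.88 (SE 0.20).

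B4galnt1, whose product adds N-acetylgalactosamine to GM3 and GD3 and so makes GM2 and GD2, was also lower in every treated tumour (ENSMUSG00000006731, chromosome 10, 127165225 to 127172330). Vehicle libraries held 65.9, 66.5, 63.6 and 77.4 CPM, and panobinostat libraries held 28.0, 27.4, 24.3 and 33.6 CPM. The lowest vehicle value was above the highest treated value. The log2 difference was -1.28 (SE 0.12), or 2.42-fold lower.

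St3gal5, the GM3 synthase gene on chromosome 6 (ENSMUSG00000056091, 72097592 to 72154571), lay on the other side. It was at 28.4, 34.2, 29.1 and 37.0 CPM with vehicle and at 62.5, 45.6, 53.5 and 73.8 CPM with panobinostat. All treated tumours were above all vehicle tumours, and the treated values were the more spread out. The log2 difference was 0.86 (SE 0.16), or 1.81-fold higher. The treated libraries also held more macrophage markers (580.0 to 1158 against 2821 to 5015 CPM in sum). Within the treated group the order was opposite to that of St3gal5, with macrophage sums of 3375, 5015, 4052 and 2821 CPM. Vehicle sums were 1158, 580.0, 729 and 885 CPM, with no such order. Lyz2 alone made up 564, 274, 432 and 596 CPM of these vehicle sums, so their order leans on 1 gene. The part of the macrophage markers in the St3gal5 difference was not tested. The highest St3gal5 value was in panobinostat library 4, the library with the most reads of the liver, pancreas and kidney markers. Adrenal cortex markers summed to 717, 39.3, 1007 and 2735 CPM in panobinostat libraries 1 to 4. Like St3gal5 they were highest in library 4 and lowest in library 2, with libraries 1 and 3 in the other order. The part of these markers in the St3gal5 difference was not tested either. Without panobinostat libraries 3 and 4 the difference was 0.74 (SE 0.20).

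**Figure D1:**
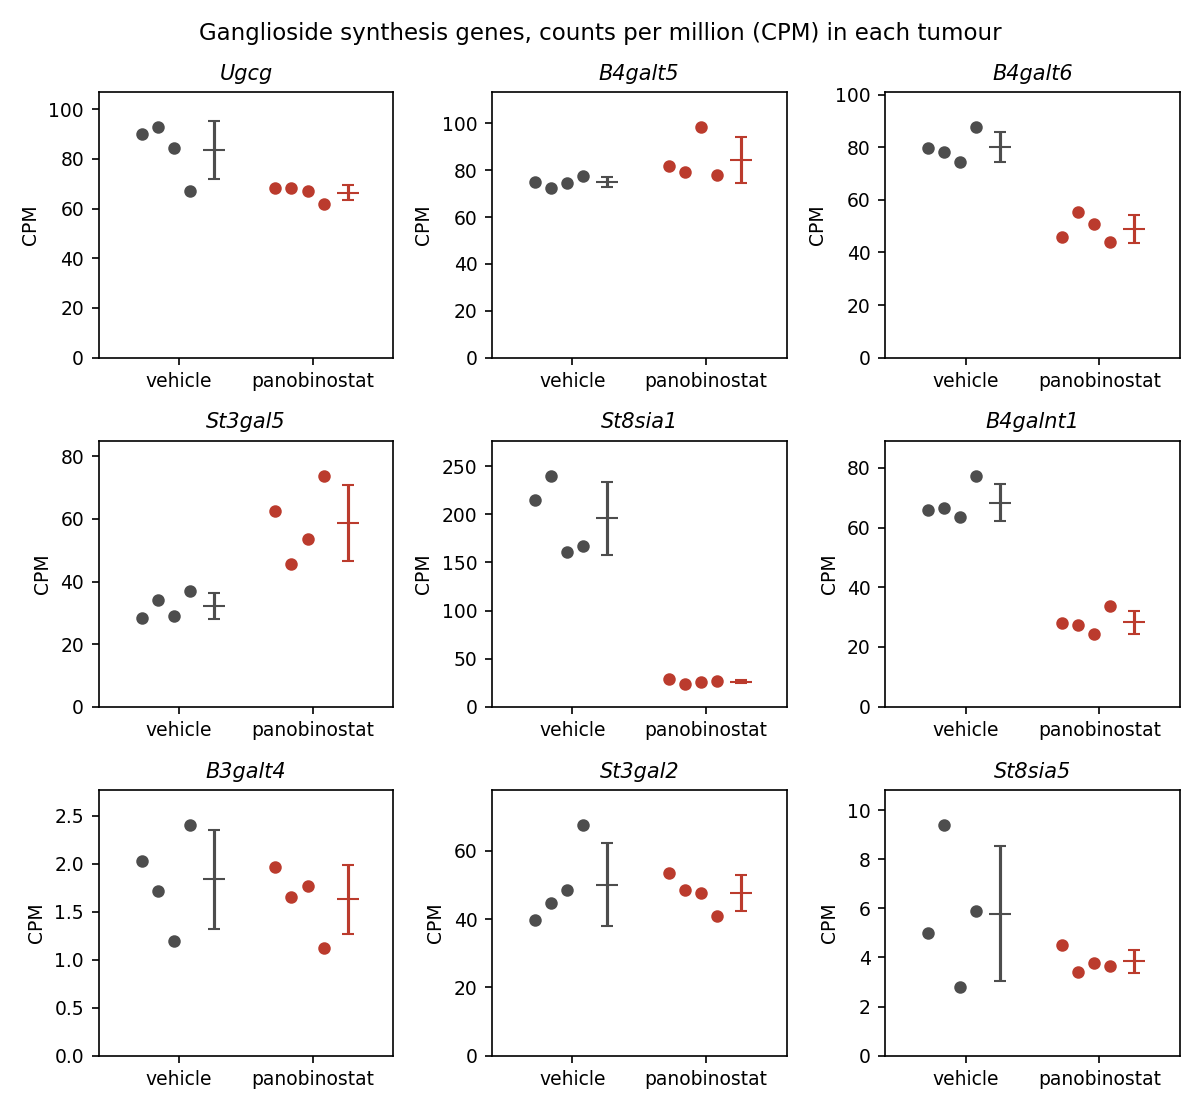
Level of each of the 9 ganglioside synthesis genes in each tumour, in CPM on linear axes from 0, with 4 vehicle and 4 panobinostat libraries as points and the mean ± SD beside them. St8sia1 and B4galnt1 lay lower and St3gal5 higher in all 4 treated tumours, whereas the groups overlapped for Ugcg, B3galt4, St3gal2 and St8sia5.

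The genes of the first steps, up to lactosylceramide, showed smaller differences. Ugcg encodes glucosylceramide synthase, which puts the first sugar on ceramide (chromosome 4, 59189257 to 59222833). It was at 90.0, 93.0, 84.2 and 67.1 CPM with vehicle and at 68.3, 68.4, 66.9 and 62.0 CPM with panobinostat. The lowest vehicle library, number 4, lay within the treated range, so the groups overlapped. The log2 difference was -0.32 (SE 0.11).

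B4galt5 and B4galt6 both encode lactosylceramide synthases, which add galactose to glucosylceramide. B4galt6, the form best known from the nervous system, was at 79.7, 78.2, 74.5 and 87.8 CPM with vehicle. With panobinostat it was at 45.7, 55.5, 50.9 and 43.9 CPM, below every vehicle tumour. Its log2 difference was -0.71 (SE 0.10). B4galt5, which is widely expressed (chromosome 2, 167298444 to 167349183), was at 75.2, 72.3, 74.4 and 77.4 CPM with vehicle and at 81.7, 79.1, 98.6 and 78.1 CPM with panobinostat. The highest vehicle value lay just below the lowest treated value, and panobinostat library 3 was the high value. The log2 difference was 0.17 (SE 0.10), which became 0.05 to 0.32 when libraries were scaled in other ways and 0.09 without panobinostat library 3.

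For each gene that extends the chain past GM2 and GD2, the 2 groups overlapped. B3galt4, whose product adds galactose to make GM1 and GD1b (chromosome 17, 33949909 to 33951488), was scarce, at 2.03, 1.72, 1.20 and 2.41 CPM with vehicle and 1.97, 1.66, 1.77 and 1.12 CPM with panobinostat. These values came from 22 to 51 reads a library, which limits their precision. St3gal2, which sialylates the terminal galactose to give GD1a and GT1b (chromosome 8, 110919922 to 110972480), was at 39.7, 44.6, 48.5 and 67.7 CPM with vehicle. With panobinostat it was at 53.5, 48.5, 47.8 and 40.8 CPM, inside the vehicle range. St8sia5, which adds further sialic acids to complex gangliosides, was at 4.99, 9.41, 2.79 and 5.91 CPM with vehicle and 4.53, 3.42, 3.78 and 3.67 CPM with panobinostat. The log2 differences were -0.15 (SE 0.30) for B3galt4, -0.05 (SE 0.17) for St3gal2 and -0.46 (SE 0.34) for St8sia5. St8sia5 varied most among vehicle tumours, from 63 to 192 reads, and its difference was -0.18 without vehicle library 2 and -0.77 without vehicle library 3.

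Taking the 9 genes as a list, 4 were past the threshold as lower (St8sia1, B4galnt1, B4galt6 and Ugcg), 1 as higher (St3gal5) and 4 not past it, in a limma fit of all tested genes at a Benjamini-Hochberg adjusted p of 0.05. Over all tested genes 32.4% were called lower and 31.2% higher, 63.7% in all. The members were chosen with this comparison known, so their count describes them and supports nothing. Vehicle and panobinostat values overlapped in 4 members and were apart in 5, and 59.7% of tested genes had groups that were apart. The median log2 difference of the members was -0.32 and that of all tested genes -0.02. St8sia1, B4galnt1, B4galt6 and St3gal5 were past the threshold in all 18 alternatives, and B3galt4 and St3gal2 in 0. Ugcg was past it in 7 of 18. It was not when any 1 library other than vehicle library 4 was left out, without panobinostat libraries 3 and 4 together, or under quantile normalization, scaling to read totals or no variance trend. B4galt5 was past it in 2 of 18, under scaling to read totals and under quantile normalization. St8sia5 was past it in 3 of 18, as lower, with quantile normalization (-1.05), with array weights (-0.82) and without vehicle library 3.

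Levels can be set side by side between genes only per transcript length, here CPM per kb of the union of annotated exons (GENCODE M21), on which a gene with long unused exons reads too low. On that scale the vehicle tumours held most St8sia1 (21.0 ± 4.10) and B4galnt1 (19.8 ± 1.79), whose ranges overlapped. B4galt5 (17.4 ± 0.49), Ugcg (16.0 ± 2.22), B4galt6 (13.8 ± 0.97), St3gal5 (12.3 ± 1.57) and St3gal2 (9.94 ± 2.43) followed, each overlapping the next in range (mean ± SD of CPM per kb, n = 4). B4galnt1 and B4galt5 did not overlap. B3galt4 (1.16 ± 0.33) and St8sia5 (1.06 ± 0.51) were the lowest, overlapped each other and were apart from the rest.

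The order changed in the treated tumours. St3gal5 (22.5 ± 4.64 CPM per kb) and B4galt5 (19.6 ± 2.23) led and overlapped, and Ugcg came next at 12.7 ± 0.57. St3gal2 (9.44 ± 1.04), B4galt6 (8.44 ± 0.91) and B4galnt1 (8.20 ± 1.13) overlapped in sequence. St8sia1 was at 2.80 ± 0.21, below all of these and above B3galt4 (1.03 ± 0.23) and St8sia5 (0.71 ± 0.09), in ranges that did not overlap (n = 4 each). St8sia1 led the order with vehicle and stood above only B3galt4 and St8sia5 with panobinostat.

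**Figure D2:**
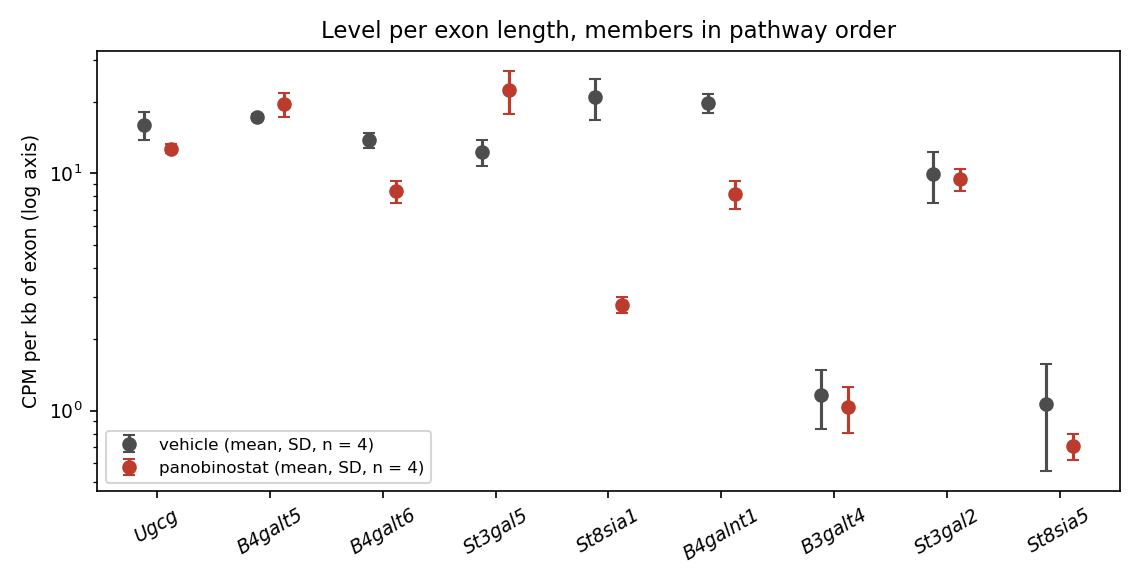
Level per exon length of the 9 genes in pathway order (CPM per kb on a log axis), as mean ± SD of 4 vehicle and 4 panobinostat tumours. St8sia1 moved from 21.0 to 2.80 CPM per kb, while St3gal5 moved from 12.3 to 22.5.

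Ratios between genes of 1 library do not depend on a factor that scales the whole library, although quantile normalization can change them. The log2 ratio of St8sia1 to St3gal5, the genes of GD3 and GM3 synthesis, was 2.92, 2.81, 2.47 and 2.18 in the vehicle tumours. In the treated tumours it was -1.13, -0.93, -1.04 and -1.49. The ratio was above 0 in all 4 vehicle tumours and below 0 in all 4 treated tumours, and per length it was 1.73 ± 0.39 with vehicle and 0.128 ± 0.020 with panobinostat (mean ± SD, n = 4). The log2 ratio of B4galnt1 to St3gal5 was 1.09 ± 0.11 with vehicle and -1.04 ± 0.21 with panobinostat. St8sia1 to B4galnt1, the enzymes of the last steps to GD2, had a log2 ratio of 1.50 ± 0.34 with vehicle and -0.11 ± 0.21 with panobinostat, so St8sia1 was lower by more than B4galnt1. B4galt6 to B4galt5 was at 0.10 ± 0.07 and -0.78 ± 0.19. These ratios use the same values that chose the members and carry no test.

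**Figure D3:**
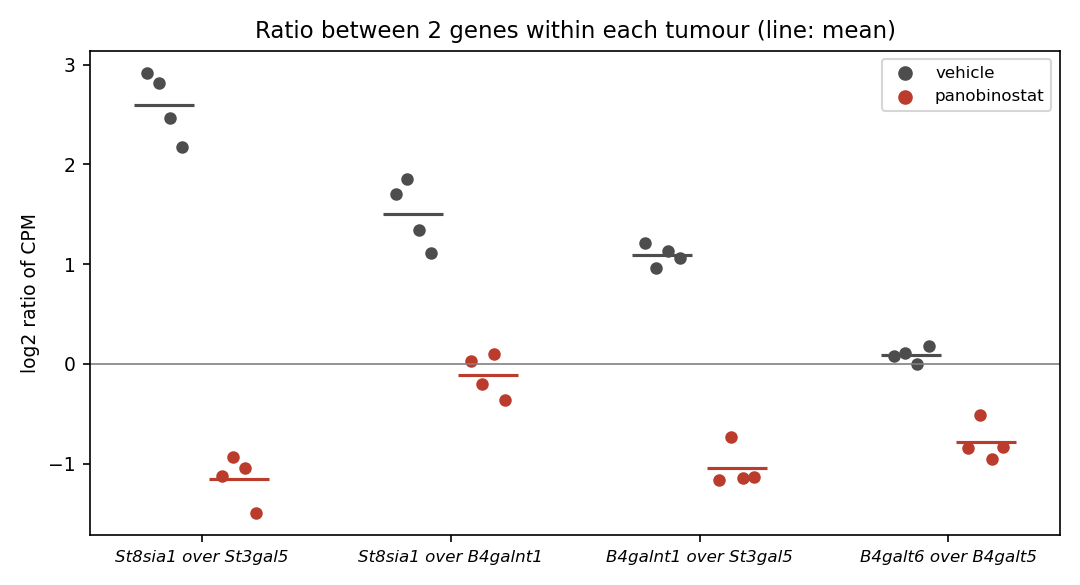
Log2 ratio of CPM between 2 genes in each tumour (points) with the mean of 4 as a line, for vehicle and panobinostat. St8sia1 over St3gal5 lay between 2.18 and 2.92 in vehicle tumours and between -1.49 and -0.93 in treated tumours.

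Some exons of St8sia1 overlap those of Gm7457, a noncoding transcript on the opposite strand, and exons of B4galnt1 overlap those of Slc26a10, an anion transporter family gene on the opposite strand. Gm7457 was at 0.803 to 1.57 CPM with vehicle and 0.134 to 0.478 CPM with panobinostat, and Slc26a10 at 1.04 to 1.69 and 1.97 to 2.72 CPM. Both were far below the members they overlap. Whether counting used strand is not given in the sources used here, so reads in the shared exons cannot be assigned to 1 strand.

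By Pearson correlation of log2 values over the 8 libraries, the genes whose pattern was most like that of St8sia1 were Ripply2 (0.999), Wac (0.998), Rtl1 (0.997), Rnaseh2b (0.997) and Ccdc57 (0.997). All libraries share the treatment split, which dominates these values, so they are a description. The size of the difference was not alike, from 392 to 43.2 CPM in the means of Rtl1 and from 180 to 90.9 CPM in those of Wac.

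Other genes of the pathway were read from 5 lists that hold none of the 9 members. The libraries in which they changed also differed in macrophage markers (580.0 to 1158 against 2821 to 5015 CPM in sum). They differed as well in fibroblast and mural markers (1581 to 4950 against 8496 to 15479 CPM) and in adipocyte markers (20.4 to 558 against 853 to 1167 CPM). The part of these markers in each list was not tested. Among 15 tested sialyltransferase genes outside the core chain, 6 rose, 3 fell and 6 made no call (median log2 difference 0.44, all tested genes -0.02; background 31.2% higher and 32.4% lower). St8sia3, a close relative of St8sia1 that acts on glycolipids and glycoproteins, was at 43.6 to 57.3 CPM with vehicle and 4.48 to 9.01 CPM with panobinostat (-2.88, SE 0.21, limma, adjusted p = 9.24e-06). St8sia2, which builds polysialic acid on the neural cell adhesion molecule, was at 73.9 to 103 CPM with vehicle and 18.8 to 28.9 CPM with panobinostat, and fell by 1.86 on the log2 scale (SE 0.16). St6gal2, a sialyltransferase of glycoproteins, fell by 3.65 (SE 0.35), with 8.72 to 14.8 CPM in vehicle and 0.621 to 1.66 CPM in treated tumours. The treated libraries held 37, 12, 13 and 14 of its reads, and only panobinostat library 1 of them reached 1 CPM. St6gal2 thus passed the filter mainly through the vehicle tumours, so its call is a description only. St6galnac4, which adds sialic acid to sialylated chains, rose by 1.99 (SE 0.15), with 13.9 to 20.3 CPM in vehicle and 63.1 to 77.8 CPM in treated tumours. St8sia4, the other polysialyltransferase gene and named after its value was seen, rose by 2.36 (SE 0.47), with 1.82 to 9.94 CPM in vehicle and 13.2 to 20.3 CPM in treated tumours.

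Relatives of the galactosyl- and N-acetylgalactosaminyl-transferases, most of which act on proteins, were split, with 4 of 11 tested genes higher and 4 lower (median log2 difference 0.12), near the shares over all tested genes (31.2% higher and 32.4% lower). B4galt4 rose by 1.72 (SE 0.23) and B4galt7, which adds a galactose in the linker of proteoglycans, by 0.86 (SE 0.11). B4galt2 changed by -1.49 (SE 0.11), and B4galnt4, at 81.8 to 135 CPM with vehicle and 26.1 to 32.2 CPM with panobinostat, by -1.82 (SE 0.16). Named after their values were seen, B4galt1 (1.82, SE 0.27) rose as well, and B3galt6 (-1.25, SE 0.20) and B3galt1 (-0.61, SE 0.22) fell. The B3galt1 call was lost without vehicle library 1 or 2, without panobinostat library 1, 2 or 3 and with scaling to read totals (limma, adjusted p from 0.0573 to 0.0966). The fourth gene called higher, B4galnt2, was at 0.24 to 0.53 CPM with vehicle and 1.08 to 1.61 CPM with panobinostat. It passed the filter through the treated tumours alone, so its call is a description only. Its difference was 1.93 (SE 0.33) and ranged from 0.80 to 2.15 over the 13 of 18 alternatives that tested it.

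Genes that supply ceramide, or draw it and lactosylceramide into other lipids, rose in 8 of 18 tested cases and fell in 4, with a median log2 difference of 0.20, where 31.2% of all tested genes were higher and 32.4% lower. Sptlc2, a subunit of the serine palmitoyltransferase that starts sphingolipid synthesis, was at 41.4 to 53.9 CPM with vehicle and 119 to 137 CPM with panobinostat (1.38, SE 0.11). Plekha8, which carries glucosylceramide to the site of the next step, rose by 0.80 (SE 0.11). The sphingomyelin synthase genes Sgms1 (1.49, SE 0.24) and Sgms2 (1.79, SE 0.25), named after their values were seen, use ceramide for another lipid and rose. Casd1, which encodes an O-acetyltransferase of sialic acids that can act on GD3, fell by 1.40 (SE 0.10), with 75.8 to 94.0 CPM in vehicle and 31.2 to 34.2 CPM in treated tumours. B3galnt1, the globoside synthase gene, fell by 0.91 (SE 0.11). The ceramide synthase genes Cers5 (-0.74, SE 0.11) and Cers6 (-0.45, SE 0.10), named after their values were seen, were the other 2 that fell. Without panobinostat libraries 3 and 4, 5 genes of this list rose and 4 fell.

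The donor sugars for these steps are made in the cytosol and nucleus and carried into the Golgi. Of 13 genes for that supply 6 rose, 2 fell and 5 were not called (median log2 difference 0.27), and over all tested genes 63.7% were called, 31.2% higher and 32.4% lower. The share of this list that was called is near that of all tested genes. Ugp2, which makes UDP-glucose, rose by 1.55 (SE 0.22), Nans, a sialic acid synthase, by 1.10 (SE 0.11) and the UDP-galactose carrier Slc35a2 by 1.09 (SE 0.13). The 2 that fell act directly on the sialic acid donor and are named here because they fell. Cmas, which activates sialic acid to CMP-sialic acid, was at 84.4 to 129 CPM with vehicle and 68.3 to 78.3 CPM with panobinostat (-0.53, SE 0.13). Slc35a1, which carries CMP-sialic acid into the Golgi, was at 24.0 to 29.8 CPM with vehicle and 13.7 to 19.2 CPM with panobinostat (-0.70, SE 0.14). Without vehicle library 4, 9 genes of this list rose and 3 fell, and without panobinostat libraries 3 and 4, 4 rose and 2 fell.

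Genes of ganglioside breakdown were mostly higher with panobinostat. Of 16 tested genes 14 rose, 0 fell and 2 were not called. Their median log2 difference was 1.35, and 31.2% of all tested genes were higher. Hexa, a subunit of the hexosaminidase that takes N-acetylgalactosamine from GM2, rose by 1.92 (SE 0.14). Gm2a, the activator that presents GM2 to hexosaminidase, rose by 2.37 (SE 0.19), with 27.4 to 52.0 CPM in vehicle and 151 to 202 CPM in treated tumours. Gla, the lysosomal alpha-galactosidase gene, rose by 1.52 (SE 0.12). The sialidase genes Neu1 (1.06, SE 0.15) and Neu3 (1.47, SE 0.22), named after their values were seen, rose too. The 2 without a call were Glb1, the beta-galactosidase gene (0.16, SE 0.16), and Gba2, a glucosylceramidase outside the lysosome (-0.19, SE 0.13). Without panobinostat libraries 3 and 4 the count was again 14 higher and 0 lower. By limma's unadjusted p at 0.05, 0 genes of this list were lower, and voom weights also gave 0.

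Most of the breakdown genes encode lysosomal proteins, which macrophages hold in quantity. The list summed to 2066, 1526, 1560 and 1741 CPM in the vehicle libraries and to 5179, 6414, 6305 and 4777 CPM in the treated ones. Most of each sum was Psap, named after its values were seen. It was at 1344, 889, 972 and 1027 CPM with vehicle and at 3569, 4373, 4338 and 3266 CPM with panobinostat, so the sums mainly follow 1 gene. Macrophage markers summed to 1158, 580.0, 729 and 885 CPM and to 3375, 5015, 4052 and 2821 CPM in the same libraries. The largest part was Lyz2, at 564, 274, 432 and 596 CPM and at 1769, 2809, 2134 and 1505 CPM. The vehicle tumour with the most breakdown reads, number 1, had the most macrophage marker reads of its group, and panobinostat library 2 was the highest of its group in both. The part of the macrophage markers in the breakdown genes was not tested.

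**Figure D4:**
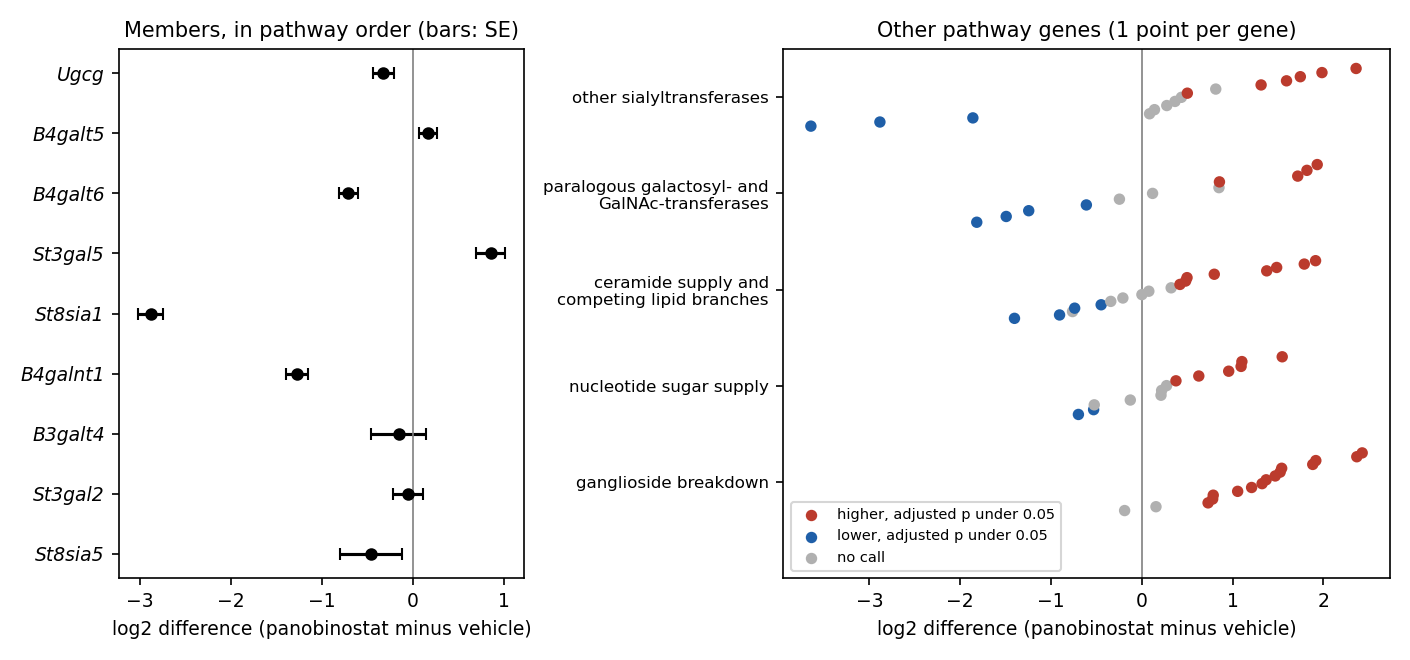
Left, log2 difference (panobinostat minus vehicle) of the 9 members with SE bars, in pathway order. Right, the same difference for each tested gene of the 5 other lists, with color giving the call at an adjusted p of 0.05, where 14 of 16 breakdown genes were higher and 0 lower.

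**Figure D5:**
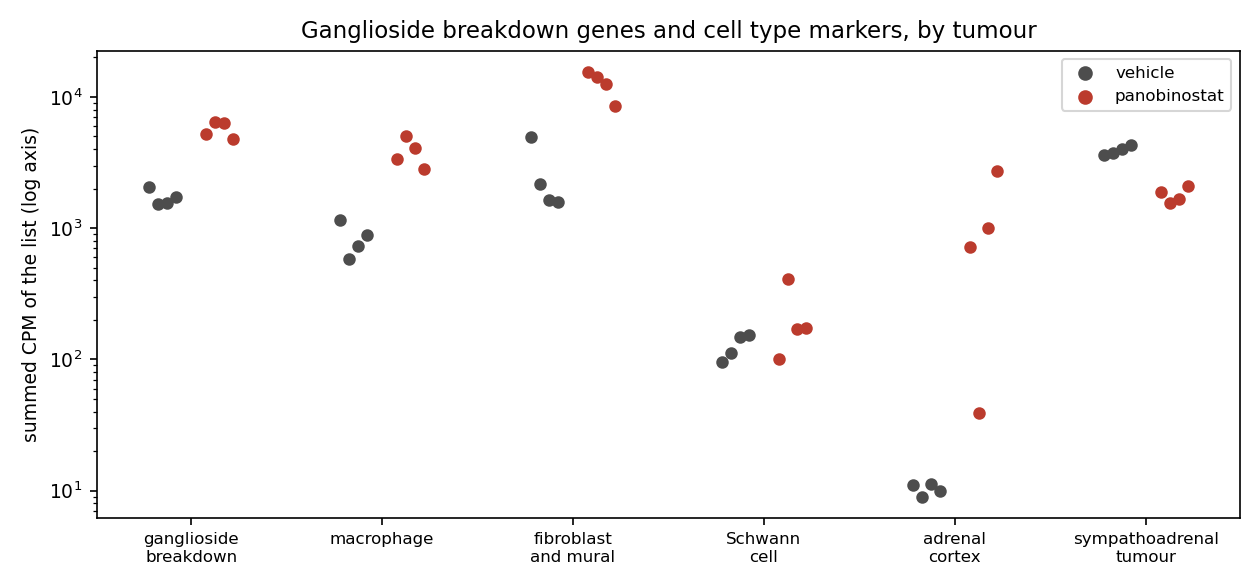
Summed CPM (log axis) of the ganglioside breakdown list and of 5 marker lists in each tumour, as points for 4 vehicle and 4 panobinostat libraries. Breakdown, macrophage and fibroblast sums were higher and sympathoadrenal sums lower in all 4 treated tumours, and adrenal cortex sums ranged from 39.3 to 2735 CPM among them. Psap made up most of each breakdown sum, and Lyz2 was the largest part of each macrophage sum.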

How the data were processed

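The deposited table holds 1 log2 value per gene and library. Its values have the form log2 CPM with 0.5 reads added to each count, as voom in limma writes it, and whole reads came back for 100% of the deposited values within a tolerance of 0.001 read. Per the submitters' processing notes, the tools were limma, HTSeq, TopHat2 and CASAVA 1.8.2 and the build was mm10, with no roles named. The annotation, scaling, filter and strand setting behind the deposited values are not stated there. Effective library sizes were 0.888 to 0.977 times the read total with vehicle and 1.00 to 1.03 times with panobinostat, and no other depth is known.

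Identifiers were matched to GENCODE M21, which gave 17228 symbols and left 260 without one. Sptlc3, Cers1 and Neu4 were not found by symbol among the 17488 listed genes. St6galnac1, B4galnt3 and Gal3st1 were under the filter. Cert1 was read under its older symbol. The fit compared 4 panobinostat with 4 vehicle libraries, with no covariate, by lmFit and eBayes with a variance trend (limma 3.58.1, R 4.3.3), on genes that reached 1 CPM in 4 or more libraries. Tests were two-sided with Benjamini-Hochberg adjustment at 0.05. All adjusted p-values are limma's. CPM was computed from the recovered reads, with no pseudocount.

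Members and lists were chosen with earlier results of these data known. The rule for named genes took all members, the 4 genes of each pathway list with the smallest adjusted p and the 5 genes most like St8sia1, and 2 genes it took are not reported here by name. Replicate numbers only name samples. The p-values set the difference between group means against the spread between the 4 animals within each group, moderated over all tested genes. Animal codes were all lower with vehicle, and a batch of that kind cannot be told apart from treatment. The fit was tested on simulated counts of 16157 genes, 200 of them changed. It recovered 67% of those changed 2-fold and 100% of those changed 4-fold, and made 7 false calls. The simulation gave all genes the same dispersion and changed far fewer than the 63.7% called in the data. Its shares therefore check the code and do not describe recovery in this comparison. Alternatives were quantile normalization, median centring, scaling to read totals, an added pseudocount of 1 CPM, no filter, robust variance, no variance trend, array weights, leaving out each library and leaving out panobinostat libraries 3 and 4. Voom weights on the recovered reads were added after the data were seen.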

Additional observations from a re-analysis of the deposited data

Results flagged for a closer look

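In groups of 4 tumours, 1 value stood apart from the others by Dixon's criterion, among 54 groups checked over 27 genes, and chance gives about 1 in 20. St6gal2 in panobinostat library 1 was at 0.75 log2 CPM (1.66 CPM), above 0.621 to 0.713 CPM in the other treated tumours. None of the 9 ganglioside synthesis genes had such a value in either group.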

How the results depend on the processing

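No paired analysis was possible because the labels give no replicate numbers that the groups share. Of 162 values of the 9 members under 18 alternatives, 157 lay within 1 within-group SD of the reported difference. St8sia1 ranged from -3.06 to -2.77, B4galnt1 from -1.39 to -1.16, St3gal5 from 0.74 to 0.98 and B4galt6 from -0.83 to -0.59, all keeping their sign. B4galt5 moved to 0.32 with quantile normalization, 0.0502 with median centring and 0.29 with scaling to read totals. Quantile normalization also moved B3galt4 to -0.81 and St8sia5 to -1.05. The sign of B3galt4 held in 16 and that of St3gal2 in 13 of 18 alternatives. The median log2 difference of all tested genes was -0.02, and became -0.14, -0.14 and 0.10 under these scalings in that order. The count of higher genes went from 5048 to 3328 and that of higher ceramide genes from 8 to 5 without panobinostat libraries 3 and 4, which leaves fewer samples. Calls of the 18 pathway genes named by rule held in all 324 alternative values. The rule took the smallest adjusted p of the main fit to the same libraries, which largely set that outcome in advance. B3galt4 and St8sia5 rest on few reads, which limits their precision.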
